A study of Homo sapiens with 4 samples.

Results

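The genes described here encode the machinery that starts and carries out DNA replication. They are 50 listed genes, out of 56865 genes with a summed read estimate, and cover the origin recognition complex, the loading factors, the replicative helicase, the sliding clamp and its loader, the replicative polymerases and the factors that travel with the fork. They were measured by RNA sequencing in MDA-MB-468, a triple-negative breast cancer cell line of epithelial origin, whose name the sample labels spell MDA-MD-468. One group was given MS1943, a small molecule made to degrade the histone methyltransferase EZH2, at 5 µM for 3 days (2 libraries). The other was given the solvent DMSO (2 libraries). A day of treatment is listed for the MS1943 libraries only. All 4 libraries came from cells at passage 12, and the cells had been seeded as duplicate dishes, so the p-values measure the spread between duplicates of 1 line. The sources used here do not say whether a library was made from 1 dish or from several pooled dishes, and pooling would narrow that spread. No second cell line and no inactive analog of the compound were part of the groups analysed.

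Replication begins at origins, which the origin recognition complex (ORC) marks by binding DNA. In G1 phase ORC, CDC6 and CDT1 load rings of MCM2 to MCM7 onto the DNA, a step called licensing, and geminin (GMNN) holds CDT1 in check afterwards. In S phase the kinase CDC7 with its partner DBF4 and further factors add CDC45 and the GINS complex to each ring, which makes the active helicase. Polymerase alpha and primase then lay primers, and polymerases epsilon and delta extend them while held by the clamp PCNA, which the RFC complex loads. Transcription of many of these genes is known to depend on E2F factors, which the retinoblastoma protein restrains, and to peak around the entry into S phase.

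The libraries held 69878745 and 47564377 estimated reads with MS1943 and 64720699 and 71378893 with DMSO. Genes were tested with the quasi-likelihood test of edgeR, with p-values adjusted by Benjamini-Hochberg over 19358 genes, and a gene was called at an adjusted p under 0.05. The response was broad, since 59.3% of tested genes were called, with 30.0% of tested genes higher and 29.4% lower with MS1943. The epithelial markers summed to 11119 and 10667 reads scaled to library size (CPM) with MS1943 and 9758 and 9763 CPM with DMSO. None of the 6 was under 1 CPM. EGFR made up most of this sum, with 6754 and 6285 CPM with MS1943 and 4289 and 4463 CPM with DMSO. Of the 6 markers 1 (EGFR) was called higher, 3 (KRT8, KRT19 and CDH1) were called lower and 2 were not called. Of the leukocyte and red cell markers 4 of 5 were under 1 CPM in every library and the exception was CD68, at 32.0 and 29.7 CPM with MS1943 and 1.08 and 0.83 CPM with DMSO. Of the fibroblast and endothelial markers 5 of 6 were under 1 CPM in every library, and COL1A1 had 31.3 and 27.9 CPM with MS1943 and 21.1 and 20.7 CPM with DMSO. Mitochondrially encoded transcripts took 3.52% and 3.11% of reads with MS1943 and 1.65% and 1.78% with DMSO, and the part of this difference in the results below was not tested. EZH2 mRNA, whose protein the compound targets, had 104 and 108 CPM with MS1943 and 126 and 117 CPM with DMSO, and mRNA does not show whether the protein was degraded.

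All 50 replication genes were abundant enough to be tested. With MS1943, 41 fell, 6 rose and 3 were not called, against 29.4% of all tested genes called lower and 30.0% called higher. Their median log2 fold change, MS1943 over DMSO, was -0.52, while that of all tested genes was -0.01, with the 25th and 75th percentiles of all genes at -0.42 and 0.39. In 49 of the 50 the libraries of the groups did not overlap in CPM, PRIM1 being the exception. The same held for 78.3% of all tested genes, and 59.3% of all tested genes were called. Of the 50 genes 7 were called lower by at least 2-fold, against 1535 of all 19358 tested genes. None of the 50 fell by more than the -1.28 of GINS2 on the log2 scale. In a bulk sample fewer cells in S phase and less of these mRNAs per cell cannot be told apart.

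**Figure D1:**
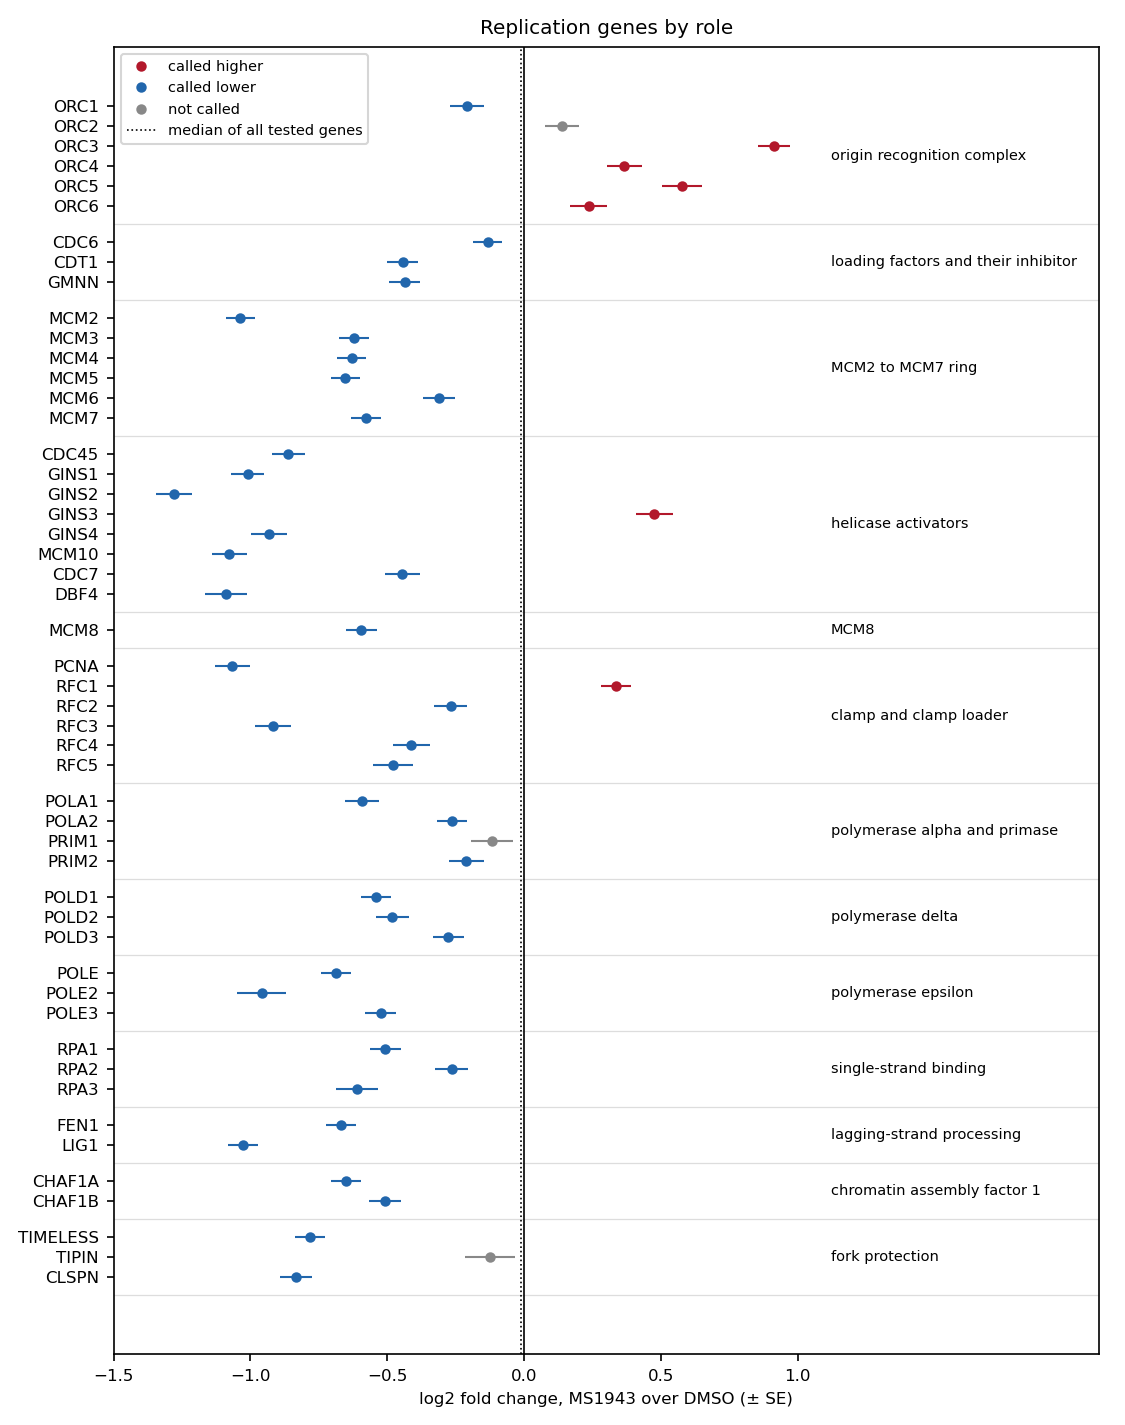
Log2 fold change of each of the 50 replication genes, MS1943 over DMSO, with bars of 1 SE from the edgeR fit (2 libraries a group), ordered by role. Red genes were called higher, blue lower and grey were not called; the red genes are ORC3 to ORC6, GINS3 and RFC1.

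The counts of genes that rose and fell differed with the step of replication. Of the 9 licensing genes 4 rose, 4 fell and 1 was not called, with a median log2 fold change of 0.14. Of the 15 helicase genes 14 fell and 1 rose, with a median of -0.65. Of the 6 clamp and clamp loader genes 5 fell and 1 rose (median -0.45), and of the 10 polymerase and primase genes 9 fell and 1 was not called (median -0.50). Of the 10 fork factors 9 fell and 1 was not called (median -0.63). These groups are described by counts and medians, and the difference between groups was not tested.

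**Figure D2:**
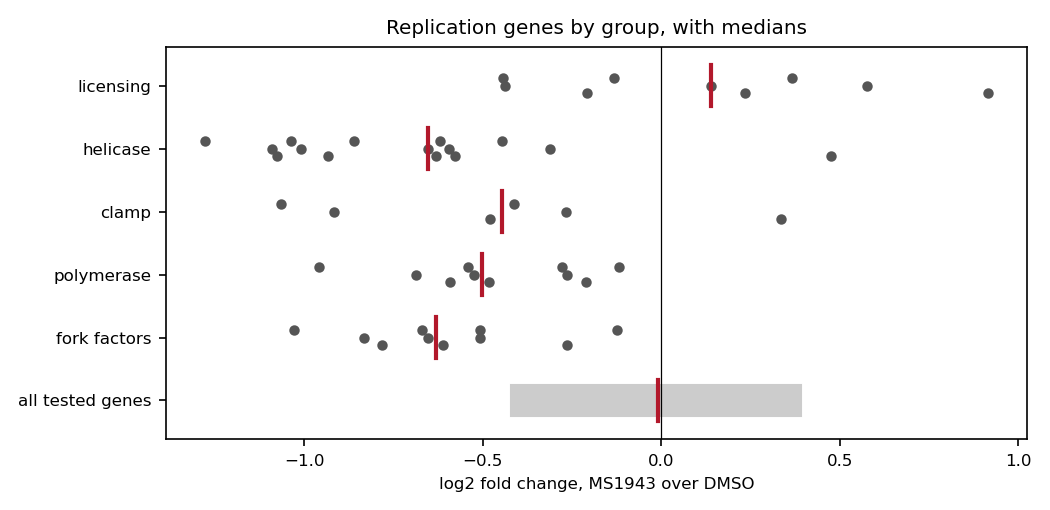
Log2 fold change, MS1943 over DMSO, of each gene (points) in the 5 groups, with the median of each group as a red line. The grey bar runs from the 25th to the 75th percentile of all 19358 tested genes; the helicase, clamp, polymerase and fork factor medians lie below the bar and the licensing median lies inside it.

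The promoters of these genes share letters that the list did not use. RefSeq promoter windows (GRCh38.p14, 250 bases before to 50 after a start) were found for 44 of the 50 genes. They were searched on both strands for the E2F letters TTTCCCGC, TTTGGCGC, TTTCGCGC or TTTGCCGC, and 22 of the 44 genes (50%) held at least 1 match, against 6.08% of 12727 other tested genes with a window. Counted per window, 22 of 57 windows of replication genes (38.6%) and 3.31% of all 35116 windows held a match. Genes with several windows have more chances of a match, and a match describes letters only. The letters stood in genes of every outcome: 19 of the 35 that fell, 2 of the 6 that rose (ORC3 and GINS3) and TIPIN, 1 of the 3 not called. The CCAAT letters occurred in 26 of the 44 genes, against 42.2% of other tested genes, and the GC box GGGCGG in 35, against 72.7%. The letters TTTGAA or TTTAAA, searched as the cell cycle homology region, were in 4 of 44, against 21.8%. The ETS letters CCGGAAGT were in 3, against 8.81%, and the NRF1 motif was in 2, against 2.38%.

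The following 6 windows are shown because they put the same letters beside different outcomes; the E2F letters are in capitals and each is read 5′ to 3′ on the strand of its gene. MCM6 (chr2:135876394-135876693, minus strand) has 4 matches in 2 overlapping pairs, of which the pairs start 152 and 90 bases before the start, and MCM2 (chr3:127598161-127598460, plus strand) has an overlapping pair just after the start. GINS2 (chr16:85688905-85689204, minus strand) has 1 match. These 3 genes fell.
MCM6: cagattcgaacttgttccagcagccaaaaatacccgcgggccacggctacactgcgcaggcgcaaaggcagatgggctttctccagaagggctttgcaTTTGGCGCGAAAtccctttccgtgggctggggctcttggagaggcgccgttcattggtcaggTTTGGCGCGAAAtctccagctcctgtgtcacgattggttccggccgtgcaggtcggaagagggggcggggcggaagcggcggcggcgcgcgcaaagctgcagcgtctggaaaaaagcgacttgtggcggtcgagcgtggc
MCM2: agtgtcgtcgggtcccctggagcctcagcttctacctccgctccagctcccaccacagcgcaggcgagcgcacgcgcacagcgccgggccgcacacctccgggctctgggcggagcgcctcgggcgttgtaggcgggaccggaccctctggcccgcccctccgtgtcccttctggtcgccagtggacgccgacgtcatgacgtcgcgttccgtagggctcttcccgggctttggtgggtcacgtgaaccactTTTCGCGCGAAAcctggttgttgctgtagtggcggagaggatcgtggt
GINS2: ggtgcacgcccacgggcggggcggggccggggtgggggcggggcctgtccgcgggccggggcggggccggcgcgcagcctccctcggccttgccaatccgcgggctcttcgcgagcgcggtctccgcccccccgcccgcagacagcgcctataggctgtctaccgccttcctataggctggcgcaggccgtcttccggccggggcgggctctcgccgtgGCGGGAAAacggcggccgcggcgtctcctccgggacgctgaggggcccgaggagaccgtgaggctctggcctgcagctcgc
TIPIN (chr15:66356636-66356935, minus strand, the downstream window of 2) was not called, while ORC3 (chr6:87589885-87590184, plus strand) and GINS3 (chr16:58392221-58392520, plus strand) rose.
TIPIN: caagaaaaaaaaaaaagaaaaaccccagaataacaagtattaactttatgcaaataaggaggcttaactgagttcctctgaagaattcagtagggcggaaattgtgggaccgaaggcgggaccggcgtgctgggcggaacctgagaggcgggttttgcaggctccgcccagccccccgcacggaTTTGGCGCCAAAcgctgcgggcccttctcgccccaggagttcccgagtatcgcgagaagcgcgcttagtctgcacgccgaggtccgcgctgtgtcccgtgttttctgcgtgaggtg
ORC3: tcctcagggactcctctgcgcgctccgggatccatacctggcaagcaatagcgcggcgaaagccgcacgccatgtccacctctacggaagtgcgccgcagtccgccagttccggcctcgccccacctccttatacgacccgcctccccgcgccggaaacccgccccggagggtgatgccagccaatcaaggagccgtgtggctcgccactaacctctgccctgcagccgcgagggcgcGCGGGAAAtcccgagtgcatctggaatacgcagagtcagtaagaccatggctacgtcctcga
GINS3: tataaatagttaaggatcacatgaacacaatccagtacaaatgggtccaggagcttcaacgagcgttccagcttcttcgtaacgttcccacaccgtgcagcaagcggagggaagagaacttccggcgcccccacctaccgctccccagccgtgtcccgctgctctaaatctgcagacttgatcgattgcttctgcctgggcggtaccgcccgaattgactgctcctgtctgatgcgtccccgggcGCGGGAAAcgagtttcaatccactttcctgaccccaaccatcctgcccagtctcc
ORC3, GINS3 and GINS2 carry the identical match GCGGGAAA close to the start, and GINS2 fell while ORC3 and GINS3 rose.

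Most subunits of ORC, the complex that marks origins, were higher after MS1943. Of its 6 subunits 4 rose, 1 fell and 1 was not called, with a median log2 fold change of 0.30. ORC3, a subunit of the ORC core, had 88.9 and 91.2 CPM with MS1943 and 50.03 and 45.6 CPM with DMSO. Both MS1943 libraries were far above both DMSO libraries, and the log2 fold change of 0.91 ± 0.06 (SE) had an adjusted p of 1e-10 in edgeR's quasi-likelihood test. It exceeded the change of 90.5% of tested genes. ORC5, an ATP-binding subunit, had 27.0 and 27.6 CPM with MS1943 and 19.4 and 17.2 CPM with DMSO (0.58 ± 0.07). ORC4, another ATP-binding subunit, had 62.3 and 61.3 CPM with MS1943 and 51.2 and 44.8 CPM with DMSO (0.37 ± 0.06). In both genes the groups were separate, with the DMSO libraries differing more from each other than the MS1943 libraries. ORC6, the smallest subunit, had 28.5 and 31.4 CPM with MS1943 and 24.8 and 26.0 CPM with DMSO (0.24 ± 0.07), and its call was lost when MS1943 replicate 2 was left out (adjusted p = 0.117), under scaling by total reads and with length offsets.

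ORC1, the subunit whose level is known to be regulated through the cell cycle, went the other way. It had 40.9 and 39.7 CPM with MS1943 and 48.6 and 44.5 CPM with DMSO, a log2 fold change of -0.21 ± 0.06 that lost its call without DMSO replicate 1 (edgeR adjusted p = 0.0598). ORC2 had 29.9 and 30.1 CPM with MS1943 and 27.8 and 26.7 CPM with DMSO, and was not called (log2 fold change 0.14 ± 0.06, edgeR adjusted p = 0.0675). On the TPM scale, which allows for transcript length, the ratio of ORC3 to ORC1 was 3.11 and 3.26 with MS1943 and 1.56 and 1.52 with DMSO. ORC4 had the highest TPM and ORC2 the lowest of the 6 subunits in all 4 libraries.

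The loading factors fell, by less than most helicase genes. CDT1, which brings MCM rings to ORC, had 76.9 and 77.6 CPM with MS1943 and 109 and 101 CPM with DMSO (log2 fold change -0.44 ± 0.06). GMNN, which encodes the CDT1 inhibitor geminin, had 84.5 and 87.5 CPM with MS1943 and 120.1 and 113 CPM with DMSO (-0.44 ± 0.06). Loading factor and inhibitor had like log2 fold changes, and the TPM ratio of CDT1 to GMNN was 0.497 and 0.453 with MS1943 and 0.475 and 0.487 with DMSO. CDC6, the ATPase that joins ORC in loading, had 64.2 and 65.2 CPM with MS1943 and 70.9 and 70.96 CPM with DMSO. Its log2 fold change of -0.13 ± 0.05 passed with an edgeR adjusted p of 0.0405 and lost the call under 6 of the 9 alternatives, with adjusted p-values up to 0.114.

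All 6 subunits of the MCM2 to MCM7 ring, the motor of the replicative helicase, fell, with a median log2 fold change of -0.63. MCM2 had 76.8 and 78.3 CPM with MS1943 and 160.6 and 158 CPM with DMSO. Both MS1943 libraries were far below both DMSO libraries, and the log2 fold change of -1.04 ± 0.05 had an edgeR adjusted p of 4.6e-12. MCM6 had 169.9 and 167 CPM with MS1943 and 217 and 200.4 CPM with DMSO (-0.31 ± 0.06). MCM3, MCM4, MCM5 and MCM7 had log2 fold changes of -0.62, -0.63, -0.65 and -0.58. MCM2 therefore fell the most of the 6 subunits and MCM6 the least, and both hold E2F letters in the windows printed above. The TPM ratio of MCM2 to MCM6 was 0.493 and 0.503 with MS1943 and 0.786 and 0.916 with DMSO. MCM7 had the highest and MCM2 the lowest TPM of the ring in all 4 libraries, and the highest was 3.98 and 3.90 times the lowest with MS1943 and 2.89 and 2.56 times with DMSO. The exons of MCM7 overlap those of AP4M1 on the opposite strand over 8.94% of their length, and the library kit named in the labels does not mark strand. MCM8, a relative of the ring that is known for its part in recombination, fell as well (-0.59 ± 0.06).

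**Figure D3:**
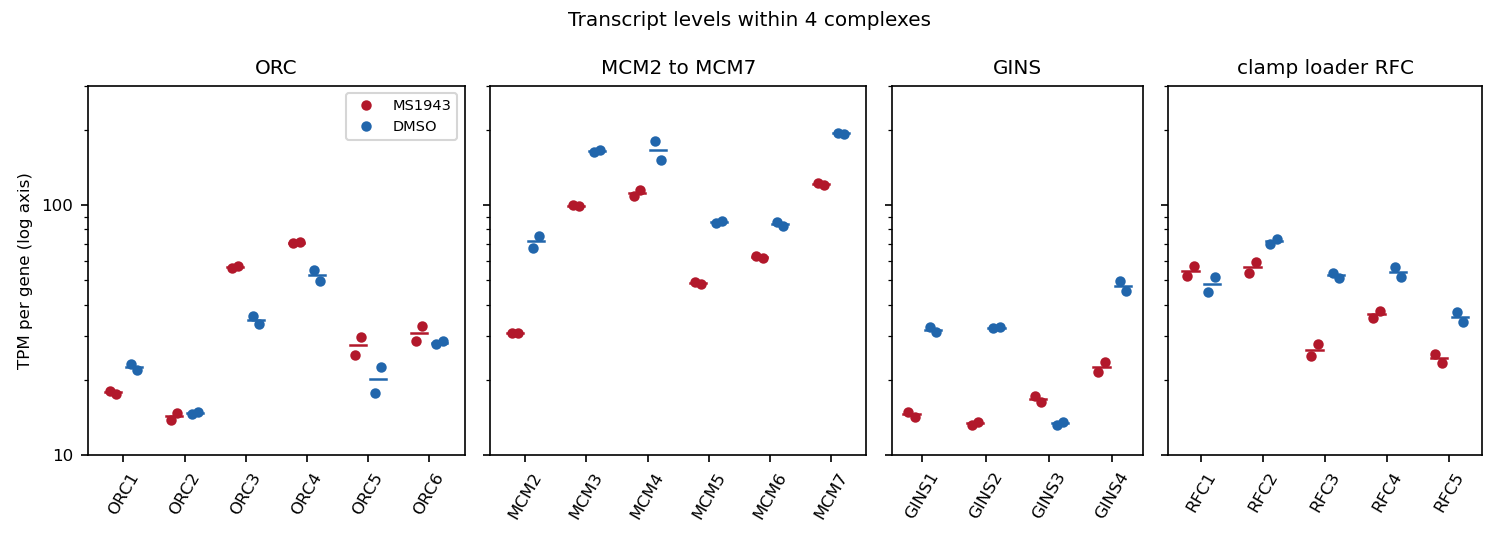
TPM of each subunit of 4 complexes on a log axis, with 1 point for each library (MS1943 red, left; DMSO blue, right) and a line at the mean of the 2 libraries. All MCM subunits are lower with MS1943, while ORC3, ORC4, GINS3 and RFC1 are higher than with DMSO.

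The factors that turn the loaded ring into an active helicase fell the most, with a median log2 fold change of -0.97 over 8 genes, of which 7 fell and 1 rose. GINS2, a subunit of the GINS complex, had 15.9 and 16.1 CPM with MS1943 and 39.7 and 37.9 CPM with DMSO. Its log2 fold change of -1.28 ± 0.07 was the lowest of the 50 genes (edgeR adjusted p = 3.9e-12), and 5.28% of tested genes were lower. DBF4, which activates the kinase CDC7, had 14.6 and 17.1 CPM with MS1943 and 34.9 and 32.4 CPM with DMSO (-1.09 ± 0.08). MCM10, which helps the assembled helicase to start, had 18.7 and 19.2 CPM with MS1943 and 40.4 and 39.3 CPM with DMSO (-1.08 ± 0.06). In all 3 genes the MS1943 libraries lay well under the DMSO libraries. CDC45, which joins the ring and GINS in the active helicase, had 26.6 and 25.5 CPM with MS1943 and 47.3 and 47.4 CPM with DMSO (-0.86 ± 0.06). CDC7 itself fell less than its partner (-0.45 ± 0.06), and the TPM ratio of DBF4 to CDC7 was 1.01 and 1.06 with MS1943 and 1.87 and 1.85 with DMSO.

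GINS3 was the helicase gene that rose. The 4 GINS subunits form 1 complex, and GINS1 and GINS4 fell with GINS2, by -1.01 ± 0.06 and -0.93 ± 0.06 on the log2 scale. GINS3 had 24.3 and 23.8 CPM with MS1943 and 17.2 and 17.3 CPM with DMSO. The groups were separate, and the log2 fold change of 0.48 ± 0.07 (edgeR adjusted p = 5.9e-06) ranged between 0.36 and 0.49 over the 9 alternatives and kept its call in each. The TPM ratio of GINS3 to GINS1 was 1.16 and 1.14 with MS1943 and 0.405 and 0.438 with DMSO. GINS3 had the lowest TPM of the 4 subunits in both DMSO libraries, and GINS2 had the lowest in both MS1943 libraries.

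The transcripts of GINS3 also differed in their shares. The coding transcripts GINS3-201 and GINS3-202 share their first exon and the start of their last exon. The last exon is 1646 bases long in GINS3-201 and 1538 bases long in GINS3-202. GINS3-201 alone holds the middle exon, which is 234 bases long at chr16:58403098-58403331 on the plus strand of GRCh38. The middle exon keeps the reading frame over 78 codons. Its sequence is shown because only GINS3-201 holds it, and the longer last exon also separates the transcripts.
GINS3 exon: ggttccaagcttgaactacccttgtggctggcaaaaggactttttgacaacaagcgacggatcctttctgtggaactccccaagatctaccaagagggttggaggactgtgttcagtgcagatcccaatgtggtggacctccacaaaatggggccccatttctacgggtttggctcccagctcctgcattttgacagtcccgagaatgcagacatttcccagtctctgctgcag
GINS3-201 took 72.7% and 73.4% of the reads of the gene with MS1943 and 56.6% and 58.1% with DMSO. GINS3-202 took 16.8% and 15.9% with MS1943 and 32.8% and 31.6% with DMSO. The shares moved in opposite directions by 15.7 and -15.9 percentage points, and for each transcript the libraries of the groups did not overlap. In a test over all 74941 transcripts GINS3-201 rose (log2 fold change 0.75 ± 0.09, edgeR adjusted p = 0.0166), and the change of GINS3-202 (-0.58 ± 0.15, edgeR adjusted p = 0.0876) was not called. The call of GINS3-201 was lost when any 1 library was left out, with edgeR adjusted p-values between 0.0710 and 0.0911, while its log2 fold change stayed between 0.73 and 0.76. The split of reads between such similar transcripts is an estimate of the authors' software, and the error of that estimate is not in these p-values.

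**Figure D4:**
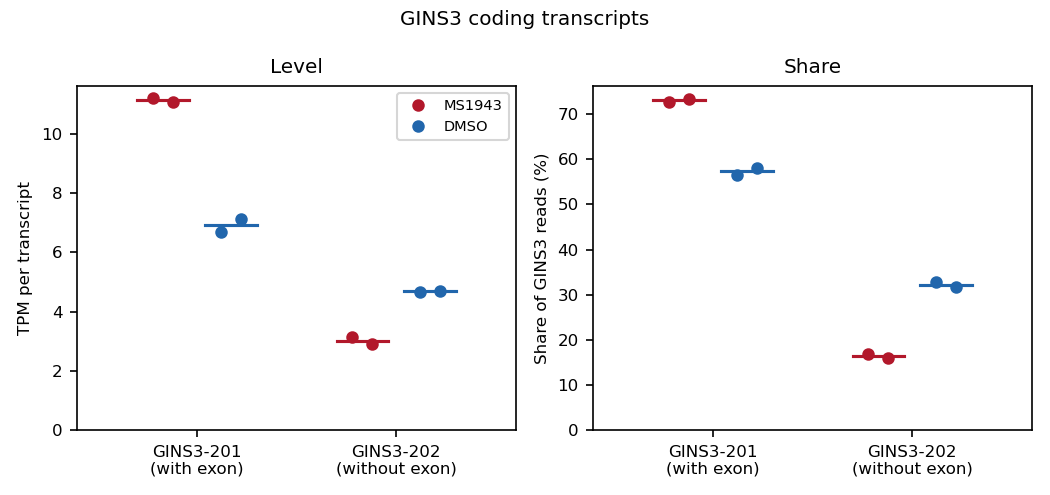
Left, TPM, and right, share of the reads of GINS3 in percent, of the transcripts GINS3-201 (with the middle exon) and GINS3-202 (without it). Points are libraries (MS1943 red, left; DMSO blue, right) and lines are the mean of 2; GINS3-201 is higher and GINS3-202 lower with MS1943 in both panels.

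Across the other genes the transcripts gave no call against the direction of their gene. Of 418 transcripts of the 50 genes 270 were tested, and 5 rose and 50 fell, against 6.23% of all tested transcripts called higher and 6.21% called lower. Leaving out 1 library left 0 or 1 higher and between 6 and 30 lower. The 5 that rose were ORC3-202, ORC3-201, ORC5-201, RFC1-201 and GINS3-201. The spread between libraries was far larger for transcripts than for genes, with a common biological coefficient of variation of 0.37 and 0.0478. On simulated data with known changes the gene test found most changed genes, and the transcript test missed nearly all changed transcripts, so a transcript that was not called is not shown to be unchanged. Transcripts of POLE2, TIPIN and POLE3 also differed by at least 10 percentage points in their mean share. POLE3-201 fell, and took 76.1% and 73.9% of its gene's reads with MS1943 and 85.6% and 84.8% with DMSO. TIPIN-204, which the annotation gives as a target of nonsense-mediated decay, took 13.9% and 17.5% with MS1943 and 1.59% and 5.87% with DMSO and was not called. TIPIN-201 took 67.4% and 60.5% with MS1943 and 76.9% and 73.1% with DMSO, and it was not called either. POLE2-206 took 17.5% and 39.8% with MS1943 and 37.6% and 41.0% with DMSO, so that its difference rests on MS1943 replicate 1.

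The clamp had a lower log2 fold change than each subunit of its loader, a difference that was not tested. PCNA, which encodes the sliding clamp that tethers polymerases, had 228 and 249 CPM with MS1943 and 520.02 and 479 CPM with DMSO. The MS1943 libraries were far below the DMSO libraries, with a log2 fold change of -1.07 ± 0.06 (edgeR adjusted p = 3.3e-11). RFC3, a small subunit of the clamp loader, had 38.5 and 43.1 CPM with MS1943 and 80.4 and 73.3 CPM with DMSO (-0.92 ± 0.07). RFC2, RFC4 and RFC5, also small subunits, fell by less, with log2 fold changes of -0.27, -0.41 and -0.48. RFC1, the large subunit, rose (0.34 ± 0.06, edgeR adjusted p = 3.6e-05). It had 124.5 and 125.4 CPM in MS1943 libraries and 103 and 95.3 CPM in DMSO libraries. The TPM ratio of RFC1 to RFC3 was 2.09 and 2.05 with MS1943 and 0.841 and 1.003 with DMSO, so the subunits of the loader, like those of GINS, stood in other proportions after treatment.

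None of the 10 polymerase and primase genes of the list rose. POLE, the catalytic subunit of the leading-strand polymerase epsilon, had 61.7 and 61.0 CPM with MS1943 and 95.8 and 102 CPM with DMSO (-0.69 ± 0.06). Its accessory subunit POLE2 had 6.82 and 7.17 CPM with MS1943 and 13.9 and 13.2 CPM with DMSO (-0.96 ± 0.09), and had the fewest reads of the 50 genes in both MS1943 libraries, with 328 in MS1943 replicate 2. The groups were separate for both. POLE3, a histone-fold subunit, fell by 0.52 on the log2 scale. POLD1, the catalytic subunit of the lagging-strand polymerase delta, had 101 and 95.2 CPM with MS1943 and 142 and 143 CPM with DMSO (-0.54 ± 0.05). Its partners POLD2 and POLD3 had log2 fold changes of -0.48 and -0.28. Among the genes of the enzymes that make primers, POLA1, the catalytic subunit of polymerase alpha, had -0.59 ± 0.06, its partner POLA2 -0.26 ± 0.05 and the large primase subunit PRIM2 -0.21 ± 0.06. PRIM1, the catalytic primase subunit, had 22.1 and 23.4 CPM with MS1943 and 26.5 and 22.8 CPM with DMSO. Its groups overlapped, and it was not called (-0.12 ± 0.08, edgeR adjusted p = 0.194), although it passed when DMSO replicate 2 was left out (log2 fold change -0.23, edgeR adjusted p = 0.00828).

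Among the fork factors LIG1, the ligase that joins lagging-strand fragments, fell the most. It had 48.8 and 47.1 CPM with MS1943 and 96.7 and 99.1 CPM with DMSO (-1.03 ± 0.06, edgeR adjusted p = 7.3e-12). FEN1, the nuclease that trims the fragments before ligation, had 99.5 and 95.6 CPM with MS1943 and 158 and 152 CPM with DMSO (-0.67 ± 0.05). Both genes were separate between the groups. RPA1, RPA2 and RPA3, which coat exposed DNA strands, had log2 fold changes of -0.51, -0.26 and -0.61. CHAF1A and CHAF1B, which deposit histones behind the fork, had -0.65 and -0.51. CLSPN, the checkpoint mediator claspin, had 45.2 and 46.3 CPM with MS1943 and 78.6 and 84.4 CPM with DMSO (-0.83 ± 0.06). TIMELESS, which protects the fork as a pair with TIPIN, had 56.3 and 55.1 CPM with MS1943 and 96.0 and 95.8 CPM with DMSO (-0.78 ± 0.05). TIPIN had 9.25 and 9.38 CPM with MS1943 and 10.4 and 9.89 CPM with DMSO and was not called (-0.12 ± 0.09, edgeR adjusted p = 0.247). The TPM ratio of TIPIN to TIMELESS was 0.606 and 0.854 with MS1943 and 0.425 and 0.414 with DMSO, with the MS1943 libraries far from each other.

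Other genes of replication, outside the 50, mostly fell too. Of 40 such genes 31 fell, 3 rose and 6 were not called, with a median log2 fold change of -0.29. The lowest were RNASEH2C, a subunit of the enzyme that removes ribonucleotides from DNA (-1.67 ± 0.06), the histone chaperone gene ASF1B (-1.61 ± 0.06), the topoisomerase gene TOP2A (-1.32 ± 0.06) and the nuclease gene DNA2 (-1.20 ± 0.08). Those that rose were POLD4, a small subunit of polymerase delta (0.78 ± 0.06), SDE2 (0.71 ± 0.06) and ASF1A, the paralog of ASF1B (0.23 ± 0.06). Polymerase delta was thus split, with POLD1, POLD2 and POLD3 lower and POLD4 higher. POLD4 had 42.2 and 41.6 CPM with MS1943 and 24.4 and 24.4 CPM with DMSO.

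Genes of repair and translesion polymerases and their partners, such as MAD2L2, moved in both directions. Of 13 genes 4 fell, 2 rose and 7 were not called, with a median log2 fold change of -0.12, and the 30.8% that fell are close to the 29.4% of all tested genes. With scaling by total reads 7 were lower and 1 higher. POLL (0.50 ± 0.07) and POLK (0.25 ± 0.07) rose, and POLQ, POLH, MAD2L2 and PRIMPOL fell, with log2 fold changes of -0.64, -0.60, -0.58 and -0.50. The difference between this list and the replicative genes was not tested.

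Regulators of S phase changed in the same libraries. Of 21 such genes 15 fell, 3 rose and 3 were not called, with a median log2 fold change of -0.45. CDKN1A, the gene of p21, which blocks cyclin-dependent kinases, had the highest log2 fold change of them (2.63 ± 0.06). It had 109.6 and 103 CPM with MS1943 and 17.5 and 16.95 CPM with DMSO. E2F1, an activator of replication genes, had 40.4 and 39.1 CPM with MS1943 and 92.4 and 92.0 CPM with DMSO (-1.21 ± 0.06). The E2F genes did not move as a block. E2F2, E2F5, E2F7 and E2F8 fell with E2F1 (-0.78, -0.20, -1.54 and -1.76). E2F3 and E2F6 rose (0.39 and 0.84), and E2F4 was not called (0.11 ± 0.06). CCNE2 fell (-1.18 ± 0.09), while CCNE1, its paralog, was not called (0.01 ± 0.06). RB1, the gene of the retinoblastoma protein, was at 1.13 and 1.27 CPM with MS1943 and 0.97 and 1.23 CPM with DMSO. All 12 markers of G2 phase and mitosis fell, with a median log2 fold change of -1.24, and their summed level was 740 and 750 CPM with MS1943 and 1753 and 1734 CPM with DMSO. The part of the cell cycle distribution in the changes of the replication genes was not tested.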

How the data were processed

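The authors deposited, per the file headers, Salmon transcript tables with estimated counts (expected counts) and TPM for each library; per the submitters' processing notes these came from Salmon 0.9.1 on hg38, and R 3.4.3 and DESeq2 were also named. The annotation release is not given in the sources used here. Libraries were poly(A) selected, per the labels' protocols. Estimated counts were summed per gene by GENCODE 29 transcript names (193505 of 197653 matched, and the others held 0.482% to 0.496% of reads) and rounded. Total reads ranged from 47564377 to 71378893. Relative counting error is larger in genes with few reads, such as POLE2 with 328 reads in MS1943 replicate 2.

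Genes were tested in R 4.3.3 with edgeR 4.0.16 (glmQLFit and glmQLFTest, TMM factors, filterByExpr, group as the only term), with Benjamini-Hochberg adjustment over 19358 genes and a threshold of 0.05. CPM use TMM library sizes. Transcripts were tested in the same way over 74941. SE is the log2 fold change divided by the root of F. DESeq2 1.42.0, other scalings, no filter, length offsets and leaving out each library were the alternatives. The tests were run on simulated data; the transcript test had little power. The genes, lists and motifs were chosen with earlier results of these data known. All 50 genes may be named; other lists name up to 4 called genes each way, the E2F, cyclin E and CDKN1A genes; transcripts are named at a share of at least 10% and a difference of at least 10 points, beside those called higher. The duplicates were not 1 library deposited again: a chi-square statistic over genes, divided by its degrees of freedom, was 6.22 with MS1943 and 6.92 with DMSO. Promoter windows are from RefSeq, GRCh38.p14.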

Additional observations from a re-analysis of the deposited data

How the results depend on the processing

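Of the 50 replication genes 45 kept their call under all 9 alternatives, and none reversed. The 5 others were CDC6, ORC6, PRIM1, ORC1 and TIPIN, whose changes lie within 0.24 of 0 on the log2 scale. Scaling by total reads moved the median of all genes to -0.12 and the share of higher calls among all called genes to 39.8%, against 50.5% with TMM factors. Under that scaling 5 replication genes rose and 43 fell, and the median of the 50 was -0.63. The list of repair and translesion polymerases and their partners then gave 1 higher and 7 lower calls. Leaving out 1 library each gave 1 higher repair polymerase at the least (without MS1943 replicate 2), between 2 (without DMSO replicate 1) and 3 lower licensing genes, and between 0 and 1 higher and between 6 and 30 lower transcripts of the replication genes. The lone library is then assumed to vary like the other group, and fewer libraries alone lower the number of calls. The cause of the other changes was not tested. No paired analysis was possible because the labels give the libraries no replicate numbers. The replicate numbers used here were assigned only to name the libraries and do not pair them. The E2F letters were found in 22 of 44 genes also within 150 bases before to 50 after the start.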

Other observations

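Several of these genes share a short start region with a coding gene on the opposite strand, a comparison chosen after the data were seen. A tested neighbour started within 1000 bases for 18 of the 50 genes, and in 13 pairs both genes were called. They moved the same way in 8 pairs and in opposite ways in 5, and among other such pairs 327 of 539 (60.7%) moved the same way. The widest split was at CDC45 (-0.86 on the log2 scale), whose neighbour UFD1, a cofactor of the segregase VCP in protein degradation, starts 244 bases away and had 259 ± 2.23 CPM with MS1943 and 93.2 ± 7.58 CPM with DMSO (SD, 2 libraries a group; log2 fold change 1.47 ± 0.06). PCNA and MCM2 fell while their neighbours CDS2 (0.34 ± 0.05) and TPRA1 (0.59 ± 0.06) rose. ORC3 and ORC6 rose together with RARS2 (0.45 ± 0.06) and VPS35 (0.30 ± 0.06).

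DBF4-204 held the largest mean share of DBF4 reads with DMSO, not corrected for transcript length, and is annotated as a target of nonsense-mediated decay. It took 53.0% and 42.2% of the reads of the gene with MS1943 and 45.5% and 47.7% with DMSO. In the other 49 genes the transcript with the largest mean share of reads with DMSO was coding.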
